A study of Mus musculus with 6 samples.

Results

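Genes that license origins of DNA replication and build the replication fork were examined in hematopoietic stem cells (HSCs) of mice that lack *Irf1*. The set comprised 43 genes named by symbol, and all 43 were found among the 26264 genes of the deposited expression table. Their mean normalized counts over all libraries ranged from 736 for *Gins1* to 39148 for *Mcm6*, so all 43 passed the filter on low values (a mean of at least 10), which 17404 genes passed in all.

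The study asked how the transcription factor IRF1 shapes HSCs, and bulk RNA-seq compared 3 wild-type (WT) with 3 *Irf1-/-* mice. HSCs were sorted from bone marrow as Lineage-Sca1+cKit+ (LSK) CD150+ CD48- cells, and 1 library was made per mouse. WT mice were C57Bl/6, and *Irf1-/-* mice carried the germline allele Irf1 tm1Mak (B6.129S2-Irf1 tm1Mak/J). All mice were untreated females aged 8 weeks. Because *Irf1* is lost in the whole body, effects of other *Irf1*-deficient cells on HSCs cannot be told apart from effects within HSCs. Libraries are named by genotype and by the replicate numbers 2, 3 and 4 of their labels, and values are given in that order. Between 43138521 and 59658080 reads per library were assigned to genes. A normalized count is the number of reads on a gene divided by 1 size factor per library.

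Before a cell enters S phase, the origin recognition complex, CDC6 and CDT1 load rings of the MCM2–MCM7 helicase onto origins, a step known as licensing. At the onset of S phase, MCM10, CDC45 and the GINS complex turn these rings into active helicases, and primase, polymerases, the sliding clamp PCNA and enzymes that supply nucleotides then copy the DNA. Many of these genes are transcribed under the control of E2F factors as cells leave quiescence, and adult HSCs are known to divide rarely.

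*Irf1* itself was read out to check the labels. WT HSCs had 10122, 11119.6 and 12058 normalized counts, and *Irf1-/-* HSCs had 9267, 9524 and 9287. Every *Irf1-/-* library lay below every WT library, which was also so for 9.27% of all tested genes. These counts alone therefore could not verify the labels. Reads on the gene were still counted at 84.3% of the WT mean (log2 fold change of −0.24 with an SE of 0.088, adjusted *P* = 0.170, limma). Counts per gene do not show which exons these reads cover, so whether they came from outside the disrupted part of the gene was not tested.

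All 43 replication genes had a lower mean log2 level in *Irf1-/-* HSCs (with quantile normalization 42 had, since *Pole* turned to 0.017, and with 1 library left out *Pole* or *Gins4* turned up to 0.058 and 0.045), whereas 50.4% of all tested genes did. The median log2 fold change of the 43 genes was −0.37, beside −0.0028 for all tested genes. *Gins1* was the only member called lower at an adjusted *P* under 0.05 and a log2 fold change below −0.58 (limma), a rule by which 0.954% of all tested genes were called lower. No member was called higher by limma, edgeR or DESeq2, against 0.96% of all tested genes in limma, and none was higher at an unadjusted *P* under 0.05, against 8.38%. Without the fold threshold, 7 members (*Cdt1*, *Gins1*, *Pola1*, *Fen1*, *Tyms*, *Dut* and *Tk1*) had an adjusted *P* under 0.05 and were lower, compared with 1.49% of all tested genes. At an unadjusted *P* under 0.05, 38 members were lower, beside 8.07% of all tested genes. The 3 *Irf1-/-* libraries lay below the 3 WT libraries without overlap for 29 of the 43 members, and for 9.27% of all tested genes. In bulk samples, fewer cells of a type and less RNA per cell cannot be told apart, so a smaller share of cycling cells and lower transcript levels in each cell would read alike here.

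The shift was uneven among the libraries. On the log2 scale, the mean deviation of the 43 members from their own means over all libraries was 0.23, 0.34 and −0.014 in WT replicates 2, 3 and 4. It was −0.12, −0.10 and −0.33 in the *Irf1-/-* replicates. WT replicates 2 and 3 thus stood highest, WT replicate 4 lay just above *Irf1-/-* replicates 2 and 3, and *Irf1-/-* replicate 4 was lowest. WT replicate 3 held the highest value of all libraries for 37 members and WT replicate 2 for 5, while *Irf1-/-* replicate 4 held the lowest for 39. Within WT, replicate 4 was the lowest library for 42 members, the exception being *Orc6*. For 40 members, WT replicates 2 and 3 were both above every *Irf1-/-* library, and for 14 members WT replicate 4 was below at least 1 *Irf1-/-* library. The members together took 0.891%, 0.939% and 0.783% of the reads in WT libraries and 0.737%, 0.704% and 0.636% in *Irf1-/-* libraries. For 37 members, the SD of normalized counts among WT libraries exceeded that among *Irf1-/-* libraries, where the means were lower. As a percentage of the mean, the median SD of the members was 12.6% in WT and 10.2% in *Irf1-/-* HSCs.

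**Figure D1:**
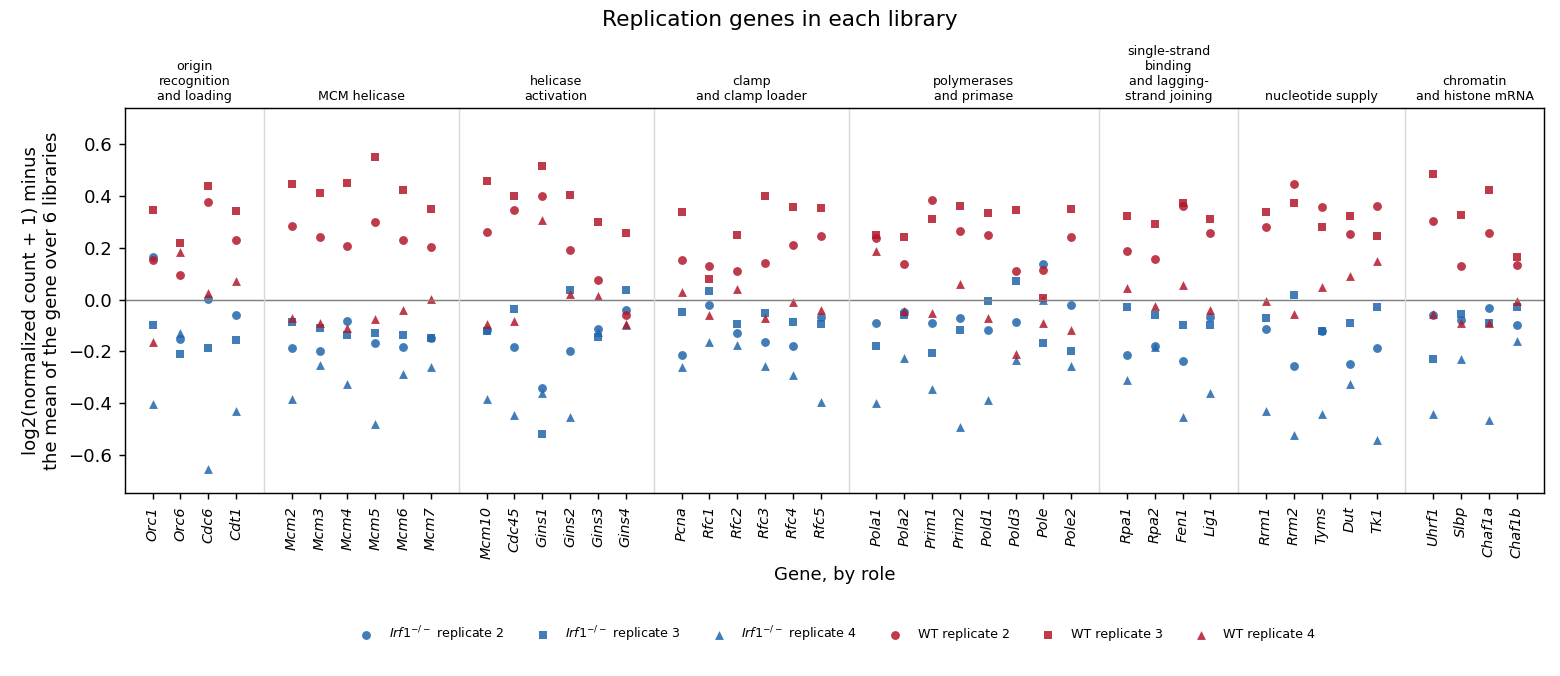
Each point is 1 library, drawn as log2(normalized count + 1) of a gene minus the mean of that gene over 6 libraries, with genes ordered by role along the x axis. WT replicates 2 and 3 (red circles and squares) lie at the top for most genes, WT replicate 4 (red triangles) lies near *Irf1-/-* replicates 2 and 3, and *Irf1-/-* replicate 4 (blue triangles) is lowest for 39 of 43 genes.

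The number of members that passed changed with single libraries. Without WT replicate 4, 8 members were called lower (*Cdc6*, *Mcm2*, *Mcm5*, *Cdc45*, *Gins1*, *Fen1*, *Rrm2* and *Uhrf1*, beside 1.52% of all tested genes, limma), and 30 were lower at an adjusted *P* under 0.05 (beside 3.14%). Leaving out *Irf1-/-* replicate 2 gave 2 called members (0.793% of all tested genes), and leaving out *Irf1-/-* replicate 3 gave 4 (0.948%). Only *Gins1* had an adjusted *P* under 0.05 and was lower once *Irf1-/-* replicate 4 (0.758% of all tested genes), WT replicate 2 (0.804%) or WT replicate 3 (0.735%) was left out. Without *Irf1-/-* replicate 2, *Cdc6*, *Gins1* and *Pola1* were (0.908%). Quantile normalization of the normalized counts before limma gave 15 members (1.98% of all tested genes) that were lower at an adjusted *P* under 0.05. Models of the recovered whole reads differed as well. With edgeR, 8 members had an adjusted *P* under 0.05 and were lower (1.53% of all tested genes, with *Mcm6* and *Mcm7* in and *Cdt1* out), and with DESeq2 there were 31 (3.77%), while each tool called *Gins1* alone past the fold threshold. The number of genes with a normalized count of at least 10 also varied, with 16791, 16745 and 17975 in WT libraries and 17624, 16468 and 17576 in *Irf1-/-* libraries. The libraries with fewer such genes therefore included WT replicates 2 and 3, in which the members were highest, but also *Irf1-/-* replicate 3. This number of genes at 10 or more normalized counts was then used as a term in the limma fit, added after the data had been seen. With this term, called the term for genes detected below, the median log2 fold change was −0.36. In this fit 28 members were lower at an adjusted *P* under 0.05 (3.35% of all tested genes).

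The genes of origin recognition and helicase loading are *Orc1* and *Orc6*, which encode subunits of the origin recognition complex, and *Cdc6* and *Cdt1*, which bring the MCM rings to it. Their median log2 fold change was −0.38, and 1 of the 4 (*Cdt1*) had an adjusted *P* under 0.05 in limma. None did with edgeR, and *Orc6*, *Cdc6* and *Cdt1* did with DESeq2 and with the term for genes detected in limma. *Cdc6*, with the largest change of the 4, had 4197, 4378 and 3285 normalized counts in WT HSCs and 3239, 2833 and 2053 in *Irf1-/-* HSCs. The libraries did not overlap, but WT replicate 4 and *Irf1-/-* replicate 2 nearly met, and *Irf1-/-* replicate 4 stood well below the rest. The means were 3954 ± 586 in WT and 2708 ± 602 in *Irf1-/-* HSCs (SD, n = 3; log2 fold change of −0.56 with an SE of 0.15, adjusted *P* = 0.0660, limma). *Cdc6* was called once *Irf1-/-* replicate 2, at −0.70 (adjusted *P* = 0.0488) in limma, or WT replicate 4, at −0.69 (adjusted *P* = 0.0215), was left out. *Cdt1*, which geminin holds inactive after licensing, had 5707, 6178 and 5119.7 in WT and 4672, 4364 and 3612 in *Irf1-/-* HSCs. Each *Irf1-/-* library was below each WT library, and *Cdt1* passed the adjusted *P* narrowly and not the fold threshold (log2 fold change of −0.43 with an SE of 0.11, adjusted *P* = 0.0486, limma). It no longer passed with edgeR (adjusted *P* = 0.0519), TMM normalization (0.0522), a pseudocount of 0.5 (0.0513), no filter on low values (0.0580) or no trend in limma (0.332). With 1 library left out, it passed only without WT replicate 4 (adjusted *P* = 0.0228, limma), and had 0.0584, 0.0732 and 0.254 without *Irf1-/-* replicates 2, 3 and 4 and 0.141 and 0.182 without WT replicates 2 and 3. *Orc6* had 2648, 2887 and 2822 in WT and 2231, 2144 and 2269 in *Irf1-/-* HSCs. Here the libraries of each genotype lay close together and apart from the other genotype, and WT replicate 4 was not low (log2 fold change of −0.33 with an SE of 0.094, adjusted *P* = 0.0764, limma; adjusted *P* = 0.0138 with DESeq2). *Orc1* showed the smallest change, with 961, 1098 and 770.3 in WT and 967, 807 and 653 in *Irf1-/-* HSCs. Its libraries overlapped, since *Irf1-/-* replicate 2 exceeded WT replicates 2 and 4 (log2 fold change of −0.22 with an SE of 0.17, adjusted *P* = 0.593, limma).

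The MCM genes encode the 6 subunits of the replicative helicase ring. Their fold changes were close to each other, from −0.52 to −0.37 with a median of −0.39. No MCM gene had an adjusted *P* under 0.05 in limma. All 6 were lower at an unadjusted *P* under 0.05, beside 8.07% of all tested genes. With edgeR, 2 of them (*Mcm6*, *Mcm7*) passed an adjusted *P* of 0.05, and with DESeq2 all 6 did. Other limma fits passed some as well, among them 4 with quantile normalization (*Mcm2*, *Mcm5*, *Mcm6*, *Mcm7*), 5 with the term for genes detected (all but *Mcm4*), *Mcm7* with a filter at 50 and all 6 without WT replicate 4. The filter at 50 left 13366 tested genes, of which 2.17% were lower at an adjusted *P* under 0.05. *Mcm5* had 25906, 30786 and 19953 normalized counts in WT HSCs and 18739.8, 19235 and 15082 in *Irf1-/-* HSCs. WT replicate 3 was far above all others, WT replicate 4 was barely above *Irf1-/-* replicate 3, and the genotypes did not overlap. The means were 25548 ± 5426 and 17685 ± 2269 (SD, n = 3; log2 fold change of −0.52 with an SE of 0.14, adjusted *P* = 0.0637, limma), and *Mcm5* was called at −0.68 (adjusted *P* = 0.00662) without WT replicate 4. *Mcm4*, with the smallest change of the ring, had 15026, 17812 and 12055 in WT and 12279, 11823 and 10388 in *Irf1-/-* HSCs. It was the only MCM gene whose libraries overlapped, because WT replicate 4 was below *Irf1-/-* replicate 2 (14964 ± 2879 against 11497 ± 987, SD, n = 3; log2 fold change of −0.37 with an SE of 0.12, adjusted *P* = 0.140, limma). *Mcm2* had 29753, 33282 and 23280.1 in WT and 21453, 23039.5 and 18704 in *Irf1-/-* HSCs. *Mcm3* had 35816, 40239 and 28459 and 26345, 28035 and 25394. For these genes WT replicate 4 exceeded the highest *Irf1-/-* library, replicate 3, by little (log2 fold changes −0.44 and −0.38), and *Mcm2* was called at −0.58 (adjusted *P* = 0.00725) without WT replicate 4. *Mcm6*, the member with the highest count, had 45241, 51654 and 37441 in WT and 33907, 35047 and 31598 in *Irf1-/-* HSCs. *Mcm7* had 26350.5, 29204 and 22961 and 20647, 20681 and 19104. All 3 *Irf1-/-* libraries were below WT replicate 4 for both genes, and *Mcm7* came closest of the ring to passing (log2 fold change −0.37, adjusted *P* = 0.0582, limma; −0.41 for *Mcm6*, adjusted *P* = 0.0707).

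Helicase activation depends on MCM10, CDC45 and the GINS complex (products of *Gins1* to *Gins4*), which with the MCM ring form the moving helicase. This group held the largest change of all members and, after *Pole*, the smallest. With limma and edgeR, *Gins1* alone reached an adjusted *P* under 0.05, joined by *Cdc45* and *Mcm10* with DESeq2 and without WT replicate 4, and by *Cdc45* with the term for genes detected. *Gins1* had 932, 1011 and 875 normalized counts in WT HSCs and 556, 492 and 550.2 in *Irf1-/-* HSCs. The gap between the genotypes was wider than the spread within either, and WT replicate 4 was with the other WT libraries here. The means were 939 ± 68.4 in WT and 533 ± 35.7 in *Irf1-/-* HSCs (SD, n = 3), so that *Irf1-/-* HSCs held 56.7% of the WT level (log2 fold change of −0.82 with an SE of 0.14, adjusted *P* = 0.00511, limma). *Gins1* was called with each library left out in turn, with log2 fold changes from −0.87 (without WT replicate 4) to −0.76 (without *Irf1-/-* replicate 3), and lost its call only when limma was fitted without an intensity trend (adjusted *P* = 0.0746), over a range of 1.38e-06 to 0.0746 for all alternatives tried. The other GINS subunits did not move alike. *Gins2* had 1681, 1948 and 1498 in WT and 1285, 1513 and 1074 in *Irf1-/-* HSCs. *Gins3* had 1328, 1549.6 and 1271 and 1163, 1139.8 and 1154. *Gins2* overlapped between genotypes through WT replicate 4 and *Irf1-/-* replicate 3, whereas *Gins3* did not overlap (log2 fold changes −0.41 and −0.26, adjusted *P* = 0.147 and 0.293, limma). *Gins4* had 3255, 4056 and 3175 in WT and 3299, 3481 and 3173 in *Irf1-/-* HSCs. Only WT replicate 3 stood above the *Irf1-/-* libraries, and *Gins4* gave the smallest change of the group (3495 ± 487 against 3318 ± 154, SD, n = 3; log2 fold change of −0.067 with an SE of 0.11, adjusted *P* = 0.837, limma), which turned to 0.045 (adjusted *P* = 0.918) without WT replicate 3. *Cdc45* had 3368, 3504 and 2507 in WT and 2339, 2587 and 1947 in *Irf1-/-* HSCs. Its WT replicate 4 fell below *Irf1-/-* replicate 3 (log2 fold change of −0.44 with an SE of 0.14, adjusted *P* = 0.106, limma), and *Cdc45* was called at −0.59 (adjusted *P* = 0.0158) without WT replicate 4. *Mcm10*, with 2545, 2921 and 1992 in WT and 1957, 1953 and 1629 in *Irf1-/-* HSCs, did not overlap, although WT replicate 4 and *Irf1-/-* replicate 2 nearly met (log2 fold change of −0.42 with an SE of 0.14, adjusted *P* = 0.125, limma).

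The sliding clamp PCNA tethers polymerases to DNA, and the RFC complex, whose subunits *Rfc1* to *Rfc5* encode, loads it. The median log2 fold change of these 6 genes was −0.33, and none had an adjusted *P* under 0.05 in limma or edgeR. With DESeq2, 4 of them did (3.77% of all tested genes were lower by this rule). In limma 5 were lower at an unadjusted *P* under 0.05, beside 8.07% of all tested genes. An adjusted *P* under 0.05 was also reached in limma by 2 with quantile normalization and by 4 each with the term for genes detected and without WT replicate 4. *Pcna* had 9996, 11373 and 9175 normalized counts in WT HSCs and 7749, 8687 and 7498 in *Irf1-/-* HSCs. The 3 *Irf1-/-* libraries were lower without overlap (log2 fold change of −0.35 with an SE of 0.098, adjusted *P* = 0.0752, limma). *Rfc5*, with the largest change of the group, had 10519, 11329 and 8621 in WT and 8452, 8306 and 6733 in *Irf1-/-* HSCs. WT replicate 4 was just above *Irf1-/-* replicates 2 and 3, and *Irf1-/-* replicate 4 was low (10157 ± 1389.9 against 7830.2 ± 953, SD, n = 3; log2 fold change of −0.37 with an SE of 0.12, adjusted *P* = 0.105, limma). *Rfc1*, the large subunit and the smallest change, had 7020.3, 6779.7 and 6151 in WT and 6325, 6554 and 5722 in *Irf1-/-* HSCs. WT replicate 4 was below *Irf1-/-* replicates 2 and 3 (6650.5 ± 449 against 6200.4 ± 429.9, SD, n = 3; log2 fold change of −0.10 with an SE of 0.091, adjusted *P* = 0.665, limma). *Rfc2* (−0.27) and *Rfc4* (−0.37) did not overlap between genotypes, and *Rfc3* (−0.31) did.

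The polymerase and primase genes showed the widest range next to helicase activation, from −0.46 to −0.020, with a median of −0.33. An adjusted *P* under 0.05 was reached by *Pola1* alone in limma and edgeR, and by *Prim1*, *Prim2* and *Pold1* as well with DESeq2, with the term for genes detected and without WT replicate 4. *Pola1* encodes the catalytic subunit of DNA polymerase alpha, which extends the primers that primase lays down. It had 4289.8, 4321 and 4139.6 normalized counts in WT HSCs and 3412, 3211 and 2759 in *Irf1-/-* HSCs. The WT libraries were within a narrow band, replicate 4 included, and all *Irf1-/-* libraries were below it (4250.1 ± 96.9 against 3128 ± 334, SD, n = 3; log2 fold change of −0.45 with an SE of 0.098, adjusted *P* = 0.0245, limma). This adjusted *P* was 0.146 without *Irf1-/-* replicate 4, 0.0873 and 0.0829 without WT replicates 2 and 3 and 0.249 without a trend in limma. *Prim2*, the large primase subunit, had 2325, 2480.4 and 2015 in WT and 1838, 1779 and 1371 in *Irf1-/-* HSCs. The genotypes did not overlap, and *Irf1-/-* replicate 4 was lowest (2273 ± 237 against 1663 ± 254, SD, n = 3; log2 fold change of −0.46 with an SE of 0.13, adjusted *P* = 0.0751, limma). *Prim1*, the catalytic primase subunit, had 4559, 4325 and 3365 and 3273, 3023 and 2745, also without overlap (log2 fold change of −0.43 with an SE of 0.12, adjusted *P* = 0.0703, limma). *Pole*, the catalytic subunit of the leading-strand polymerase epsilon, had 6285, 5829.7 and 5457 in WT and 6393, 5172 and 5796 in *Irf1-/-* HSCs. Here *Irf1-/-* replicate 2 was the highest of all libraries and *Irf1-/-* replicate 3 the lowest. *Pole* thus gave the smallest change of all 43 members (5857 ± 414 against 5787 ± 611, SD, n = 3; log2 fold change of −0.020 with an SE of 0.098, adjusted *P* = 0.956, limma), and its sign changed to 0.058 (adjusted *P* = 0.821) without *Irf1-/-* replicate 3 and to 0.032 (adjusted *P* = 0.966) without WT replicate 2. Its accessory subunit *Pole2* had 1374, 1484 and 1073 in WT and 1148, 1014 and 975 in *Irf1-/-* HSCs, and WT replicate 4 was below *Irf1-/-* replicate 2 (log2 fold change of −0.32 with an SE of 0.14, adjusted *P* = 0.275, limma). *Pold1*, the catalytic subunit of the lagging-strand polymerase delta (−0.34), and its accessory subunit *Pold3* (−0.16) overlapped between genotypes as well. *Pola2*, the accessory subunit of polymerase alpha (−0.22), did not overlap, since WT replicate 4 was at 6854 and *Irf1-/-* replicate 2 at 6838.

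Replication protein A (*Rpa1*, *Rpa2*) covers single-stranded DNA, and FEN1 and DNA ligase 1 (*Lig1*) trim and join lagging-strand fragments. None of these 4 genes overlapped between genotypes, and 9.27% of all tested genes were likewise lower in *Irf1-/-* HSCs without overlap. The median log2 fold change of the 4 genes was −0.36. At an adjusted *P* under 0.05, *Fen1* passed with limma and edgeR, *Rpa1* also with quantile normalization and without *Irf1-/-* replicate 3, and all 4 passed with DESeq2, with the term for genes detected and without WT replicate 4. *Fen1* had 10963, 11074 and 8879.6 normalized counts in WT HSCs and 7239, 7979 and 6236 in *Irf1-/-* HSCs. WT replicates 2 and 3 were nearly equal, and WT replicate 4, the lowest of WT, was still above *Irf1-/-* replicate 3. The means were 10306 ± 1236 and 7152 ± 875 (SD, n = 3; log2 fold change of −0.53 with an SE of 0.11, adjusted *P* = 0.0198, limma). *Fen1* moved past the fold threshold at −0.61 (adjusted *P* = 0.0193) without *Irf1-/-* replicate 3 and at −0.63 (adjusted *P* = 0.00598) without WT replicate 4. Its adjusted *P* in limma rose above 0.05 without *Irf1-/-* replicate 2 (0.0689) or 4 (0.118), without WT replicate 2 (0.0814) or 3 (0.0788) and without a trend (0.289). *Rpa1* had 14789, 16265 and 13425 in WT and 11204, 12749 and 10464 in *Irf1-/-* HSCs (log2 fold change of −0.37 with an SE of 0.10, adjusted *P* = 0.0633, limma). *Rpa2*, the smallest change of the group, had 8063, 8853 and 7122 and 6389, 6950.2 and 6374. For both subunits WT replicate 4 was the WT library nearest to *Irf1-/-* replicate 3 (8013 ± 867 against 6571 ± 329 for *Rpa2*, SD, n = 3; log2 fold change of −0.28 with an SE of 0.096, adjusted *P* = 0.141, limma). *Lig1* had 10335, 10748 and 8421 in WT and 8251, 8069 and 6726 in *Irf1-/-* HSCs, with WT replicate 4 close to *Irf1-/-* replicate 2 (log2 fold change of −0.35 with an SE of 0.11, adjusted *P* = 0.106, limma).

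Nucleotide supply had the lowest median of the 8 roles, −0.46, and the narrowest range, from −0.51 to −0.41. It also held 3 of the 7 members with an adjusted *P* under 0.05 in limma. The same 3 passed with edgeR, and all 5 passed with DESeq2, with the term for genes detected and without WT replicate 4. *Tk1*, which encodes the thymidine kinase of the salvage pathway, had 4924, 4553 and 4259 normalized counts in WT HSCs and 3372, 3763 and 2635 in *Irf1-/-* HSCs. All WT libraries were above all *Irf1-/-* libraries, with *Irf1-/-* replicate 4 far below (log2 fold change of −0.50 with an SE of 0.12, adjusted *P* = 0.0381, limma), and *Tk1* was called at −0.62 (adjusted *P* = 0.0216) without *Irf1-/-* replicate 3. *Tyms*, encoding thymidylate synthase, had 5579, 5282 and 4497 in WT and 4001, 3999 and 3200.5 in *Irf1-/-* HSCs (log2 fold change of −0.46 with an SE of 0.11, adjusted *P* = 0.0423, limma). *Dut*, whose product removes dUTP so that it is not built into DNA, had 6494, 6814 and 5806 and 4585, 5111 and 4340.3 (log2 fold change of −0.45 with an SE of 0.096, adjusted *P* = 0.0225, limma). Neither gene overlapped between genotypes, and *Irf1-/-* replicate 4 was the lowest library for both. None of these 3 genes passed an adjusted *P* of 0.05 in limma once *Irf1-/-* replicate 2, *Irf1-/-* replicate 4, WT replicate 2 or WT replicate 3 was dropped, with values from 0.0769 (*Tyms*, without *Irf1-/-* replicate 2) to 0.218 (*Tyms*, without *Irf1-/-* replicate 4), and *Tyms* had 0.0515 without *Irf1-/-* replicate 3. Without a trend, the values were 0.325 (*Tk1*), 0.321 (*Tyms*) and 0.258 (*Dut*). *Rrm1* and *Rrm2* encode the large and the small subunit of ribonucleotide reductase. *Rrm2*, the largest change of the group, had 6832, 6493 and 4822 in WT and 4203, 5083 and 3494 in *Irf1-/-* HSCs. WT replicate 4 was below *Irf1-/-* replicate 3, which made *Rrm2* the only gene of this role that overlapped (6049 ± 1076 against 4260.1 ± 796, SD, n = 3; log2 fold change of −0.51 with an SE of 0.14, adjusted *P* = 0.0772, limma). It was called at −0.64 (adjusted *P* = 0.0375) without *Irf1-/-* replicate 3 and at −0.66 (adjusted *P* = 0.0129) without WT replicate 4. *Rrm1* had 22036, 22955 and 18090.5 in WT and 16788, 17281 and 13463 in *Irf1-/-* HSCs. Its change was the smallest of the 5, with no overlap (21027 ± 2584 against 15844 ± 2077, SD, n = 3; log2 fold change of −0.41 with an SE of 0.11, adjusted *P* = 0.0741, limma).

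The last role covers the chromatin that is copied with the DNA. UHRF1 recognizes newly copied DNA that is methylated on its old strand, SLBP binds histone mRNA, and CAF-1 (*Chaf1a*, *Chaf1b*) places histones behind the fork. Their median log2 fold change was −0.32, and none had an adjusted *P* under 0.05 in limma or edgeR. With DESeq2, 2 of them did (3.77% of all tested genes were lower by this rule). In limma all 4 were lower at an unadjusted *P* under 0.05, beside 8.07% of all tested genes. *Uhrf1* also passed in limma with quantile normalization or the term for genes detected, and *Uhrf1* and *Chaf1a* passed without WT replicate 4. *Uhrf1* had 17202, 19511 and 13408 normalized counts in WT HSCs and 13376, 11890.5 and 10252 in *Irf1-/-* HSCs. WT replicate 4 and *Irf1-/-* replicate 2 were almost the same, and WT replicates 2 and 3 stood clear above them (16707 ± 3082 against 11839 ± 1562, SD, n = 3; log2 fold change of −0.49 with an SE of 0.13, adjusted *P* = 0.0609, limma). Without WT replicate 4, *Uhrf1* was called at −0.64 (adjusted *P* = 0.00710). *Chaf1b* had 9069, 9252 and 8223 in WT and 7717, 8107 and 7389 in *Irf1-/-* HSCs. The *Irf1-/-* libraries were lower without overlap, by a small margin (8848 ± 549 against 7738 ± 359, SD, n = 3; log2 fold change of −0.19 with an SE of 0.086, adjusted *P* = 0.282, limma). *Slbp* (−0.24) and *Chaf1a* (−0.39) overlapped between genotypes.

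**Figure D2:**
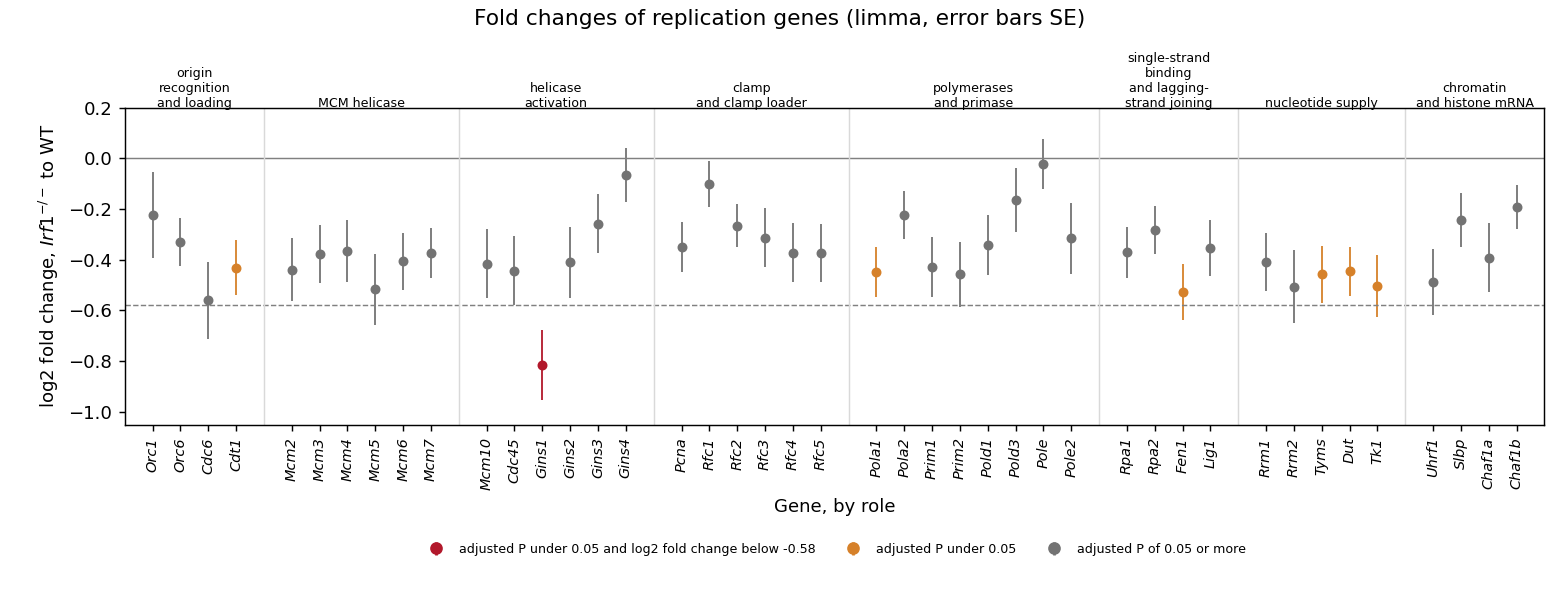
Points are log2 fold changes from WT to *Irf1-/-* HSCs from limma (3 libraries per genotype), bars are SE, and genes are ordered by role along the x axis, with the dashed line at −0.58. All 43 points are below 0 (*Pole* turned to 0.017 with quantile normalization), and *Gins1* alone is below the line with an adjusted *P* under 0.05.

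Levels were compared between genes per kilobase of the longest transcript, with lengths found by symbol for all 43 members. In WT HSCs the levels ranged from 230.0 ± 40.1 normalized counts per kilobase for *Orc1* to 11648 ± 1989 for *Mcm3* (SD, n = 3), and the median of the members was 2758. MCM genes had the highest median level of the 8 roles (8687 per kilobase). *Mcm3*, *Rfc2* (10931 ± 820.4) and *Mcm6* (10282 ± 1634) led the order, followed by *Mcm7* (8836 ± 1055), *Mcm2* (8538 ± 1505) and *Mcm5* (7466 ± 1585). Neighbours among these 6 genes did not differ by more than the larger of their SDs. *Mcm4* was lowest of the ring at 4169.5 ± 802 per kilobase, less than any other MCM gene by more than either SD. Helicase activation had the lowest median level (719 per kilobase), with *Gins4* (2562 ± 357) above *Gins1* (864 ± 63.0), *Gins3* (573 ± 61.1) and *Gins2* (438 ± 58.1). Levels depended on the length used, and those of 4 members more than doubled per kilobase of the median transcript. These were *Pole* (818 to 3846), *Mcm7* (8836 to 32920.3), *Rrm2* (2758 to 7193) and *Lig1* (3106 to 6522). *Gins2* rose from 438 to 782 per kilobase of the median transcript and then stood above *Gins3* (573 by either length).

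Further genes of replication and the cell cycle, 82 in 9 lists, were read beside the members. Of the 81 that were tested (*Chtf8* was listed at 0 in all libraries), 4 were called lower and none higher in limma (0.954% and 0.96% of all tested genes), 69 were lower (50.4% of all tested genes), and the median log2 fold change was −0.31. With edgeR 4 were called lower and none higher, beside 0.931% of all tested genes lower and 165 of 17404 higher. With DESeq2 8 were called lower and 1 higher, beside 1.19% of all tested genes lower and 286 of 17404 higher. At an adjusted *P* under 0.05 alone, 9 were lower in limma, 9 in edgeR and 31 in DESeq2 (1.49%, 1.53% and 3.77% of all tested genes). None was higher by this rule in limma or edgeR, and 2 were in DESeq2, beside 673 of all tested genes. At an unadjusted *P* under 0.05, 45 were lower and 4 higher (8.07% and 8.38% of all tested genes). In the licensing list, the remaining origin recognition subunits *Orc2* to *Orc5* were between −0.12 and −0.055, and *Orc2* (0.0049) and *Orc3* (0.034) turned higher without WT replicate 3. *Gmnn*, encoding geminin, the inhibitor of CDT1, had 2240.0, 2338 and 2020.3 in WT and 1537, 1691 and 1271 in *Irf1-/-* HSCs. Its libraries did not overlap, and it passed the adjusted *P* but not the fold threshold (log2 fold change of −0.56 with an SE of 0.12, adjusted *P* = 0.0238, limma).

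The genes called in limma, *Top2a*, *E2f8*, *Mki67* and *Aurkb*, came from 3 of these lists and were also called by edgeR and DESeq2. DESeq2 called *Ticrr*, *Asf1b*, *Ccne1* and *Ccne2* lower as well, and *Cdkn1a* higher. *Top2a*, encoding topoisomerase II alpha, which untangles copied chromosomes, had 13177, 12858 and 9810.1 in WT and 7874, 8285 and 5166 in *Irf1-/-* HSCs (log2 fold change of −0.77 with an SE of 0.16, adjusted *P* = 0.0177, limma). *E2f8*, an E2F family repressor that is itself made in S phase, had 2374, 2619 and 1906 and 1543, 1173 and 1207 (log2 fold change of −0.81 with an SE of 0.14, adjusted *P* = 0.00580, limma). Their libraries did not overlap between genotypes. Of the 15 genes of G1-S control, 13 were lower, and *E2f8* was the gene called in limma and edgeR (3 with DESeq2). All 10 mitotic genes were lower, with a median of −0.51, and those called by limma, edgeR and DESeq2 were *Mki67* and *Aurkb*. *Mki67*, a marker of cycling cells, had 5599, 4959.7 and 3949 in WT and 3090.4, 3863 and 2278 in *Irf1-/-* HSCs (log2 fold change of −0.67 with an SE of 0.17, adjusted *P* = 0.0428, limma). *Aurkb*, a mitotic kinase, had 5919, 6015 and 4624 and 4272, 3838 and 2683 (log2 fold change of −0.63 with an SE of 0.15, adjusted *P* = 0.0368, limma). *Irf1-/-* replicate 4 was the lowest library for both, and WT replicate 4 was the lowest of WT, as for the replication genes. Calls among these genes changed with single libraries. *Top2a* lost its call without *Irf1-/-* replicate 4 at −0.55 (adjusted *P* = 0.0524), without WT replicate 2 at −0.69 (adjusted *P* = 0.0571) and without WT replicate 3 at −0.71 (adjusted *P* = 0.0652). *Mki67* lost it without *Irf1-/-* replicate 2 at −0.69 (adjusted *P* = 0.125) or 4 at −0.47 (adjusted *P* = 0.167) and without WT replicate 2 at −0.56 (adjusted *P* = 0.146) or 3 at −0.64 (adjusted *P* = 0.127). *Aurkb* lost it without *Irf1-/-* replicate 3 at −0.69 (adjusted *P* = 0.0571) or 4 at −0.44 (adjusted *P* = 0.141) and without WT replicate 2 at −0.58 (adjusted *P* = 0.112) or 3 at −0.57 (adjusted *P* = 0.134), whereas *E2f8* kept its call in each case. The quiescence list had 4 of 10 genes lower and a median of 0.024, with none called in limma (1 lower and 3 higher at an unadjusted *P* under 0.05, none with an adjusted *P* under 0.05 in edgeR and 1 higher in DESeq2). This list mixed D cyclins with inhibitors of the cell cycle. Its lower genes were the D cyclins *Ccnd1* (−0.12), *Ccnd2* (−0.034) and *Ccnd3* (−0.17), and *Cdkn2c* (−0.45). Higher were *Cdkn1a* (0.78), *Foxo3* (0.42), *Cdkn1c* (0.22), *Mxd4* (0.16), *Cdkn1b* (0.045) and *Rgs2* (0.0022). Among tested genes, the other lists had 6 of 6 (licensing), 10 of 11 (firing and fork protection), 6 of 7 (other polymerase and loader subunits), 6 of 7 (other maturation and topoisomerases), 8 of 9 (other nucleotide supply) and 6 of 6 (chromatin behind the fork) genes lower.

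Markers of cell types were read in the same libraries, since a different mixture of cells could accompany the shift. The 10 HSC markers, led by *Kit*, were all detected, with a summed level of 198369, 204031 and 185360 normalized counts in WT and 196859, 220910.0 and 199794 in *Irf1-/-* HSCs. Of these 10, 1 was lower and 5 were higher in *Irf1-/-* HSCs at an unadjusted *P* under 0.05 in limma. Of all tested genes, 8.07% were lower and 8.38% higher by that rule. For the calls in each marker list, limma called 0.954% of all tested genes lower and 0.96% higher. With all libraries *Fgd5* alone was called, and it was higher, with 3918, 3818 and 3522 in WT and 6752, 6881 and 6387 in *Irf1-/-* libraries (log2 fold change of 0.83 with an SE of 0.087, adjusted *P* = 9.13e-05, limma). *Procr* was higher (0.52, adjusted *P* = 0.0112, limma) and *Ly6a*, which encodes the sorting marker Sca1, was lower (−0.43, adjusted *P* = 0.0245), both without overlap between genotypes. *Procr* was called without WT replicate 2 at 0.58 (adjusted *P* = 0.0156), and *Ly6a* lost its adjusted *P* without *Irf1-/-* replicate 2 (0.115) or 4 (0.111) or WT replicate 3 (0.0772, limma). The 6 megakaryocyte markers, led by *Itga2b*, summed to 58357, 71304 and 56427 in WT and to 51251, 33866 and 46258 in *Irf1-/-* HSCs. Of this list 2 of 6, *Pf4* (−1.11, adjusted *P* = 0.00334, limma) and *Gp1ba* (−0.69, adjusted *P* = 0.0183), were called lower. *Gp1ba* lost its call without *Irf1-/-* replicate 2 (0.0634, limma adjusted *P*) or 3 (0.0590) or WT replicate 3 (0.0759), and *Itga2b* was called without WT replicate 4 at −0.67 (adjusted *P* = 0.0448). Within WT, the megakaryocyte sum followed the order of the replication genes, highest in replicate 3 and lowest in replicate 4, while among *Irf1-/-* libraries it was lowest in replicate 3 and the replication genes were lowest in replicate 4. The 6 erythroid markers, led by *Epor*, summed to 3705, 3828 and 2995 in WT and to 2924, 2217 and 2731 in *Irf1-/-* HSCs, with *Klf1*, 1 of 3 tested, called lower (−0.72, adjusted *P* = 0.0361, limma) and *Hba-a1*, *Hbb-bs* and *Hbb-bt* listed at 0 in all libraries. *Klf1* was not called when *Irf1-/-* replicate 2 was dropped (adjusted *P* = 0.0576, limma), nor without *Irf1-/-* replicate 3 (0.0700), WT replicate 2 (0.119) or WT replicate 3 (0.107). The 5 markers of later progenitors, led by *Cd34*, summed to 19733, 18008 and 20165 in WT and to 20536, 26303 and 21386 in *Irf1-/-* HSCs, and 1 of 5, *Flt3*, was called higher (0.67, adjusted *P* = 0.0407, limma), which no longer held when *Irf1-/-* replicate 2 (0.0909), 3 (0.128) or 4 (0.0729) or WT replicate 3 (0.115) was dropped. Of the tested markers of B cells (5 of 6, led by *Cd79b*), T and NK cells (3 of 6, led by *Cd4*) and granulocytes and monocytes (8 of 8, led by *Prtn3*), none was called by limma, edgeR or DESeq2, and *Prtn3* alone had an unadjusted *P* under 0.05 (0.53, adjusted *P* = 0.0335, limma). *Prtn3* was called higher without WT replicate 2 at 0.58 (adjusted *P* = 0.0497) and without WT replicate 4 at 0.60 (adjusted *P* = 0.0185). It lost its adjusted *P* without *Irf1-/-* replicate 2 (0.0610), 3 (0.0501) or 4 (0.169) or WT replicate 3 (0.127, limma). The summed levels were 2772, 3048 and 2667 in WT and 3103, 2873 and 3041 in *Irf1-/-* HSCs for B cells. For T and NK cells they were 171, 292 and 312 in WT and 346, 232 and 394 in *Irf1-/-* HSCs. For granulocytes and monocytes they were 6776, 6332 and 9414 in WT and 8502, 8596 and 10691 in *Irf1-/-* HSCs. Within this list, *S100a8* (46.9, 13.5 and 1033 in WT, 22.4, 47.5 and 110.0 in *Irf1-/-* HSCs) and *S100a9* (36.2, 10.1 and 1246 in WT, 21.3, 51.0 and 131 in *Irf1-/-* HSCs) stood far higher in WT replicate 4, the WT library with the lowest replication genes, than in any other library. Others went the opposite way, since *Ly6c2* (2.47, 808 and 60.2 in WT, 168, 181 and 3.11 in *Irf1-/-* HSCs) and *Csf1r* (195, 385 and 302 in WT, 328, 251 and 125 in *Irf1-/-* HSCs) were highest in WT replicate 3, the library with the highest replication genes. The sort selected lineage-negative cells, and the part of any other cells in the shift of the replication genes was not tested.

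The promoters of the members were searched for the E2F motif, written as TTTCCCGC, TTTGGCGC, TTTCGCGC or TTTGCCGC on either strand. RefSeq promoter windows of build GRCm38.p6, which run from 250 bases before to 50 bases after a gene start, were found for 36 of the 43 members. No window was found for *Gins1*, *Gins2*, *Gins4*, *Mcm4*, *Rfc2*, *Prim2* and *Pole*, so these were not searched. They include *Gins1*, the only member called, and *Pole* and *Gins4*, the smallest changes. The motif was present for 15 of these 36 (41.7%) and for 2.60% of the 27025 genes with a window (2.26% of all 32851 windows, and 4.01% of the 13682 tested genes with a window). Members with it were *Orc1*, *Cdc6*, *Cdt1*, *Mcm3*, *Mcm5*, *Mcm6*, *Mcm7*, *Gins3*, *Rfc3*, *Pola1*, *Pold1*, *Pold3*, *Pole2*, *Lig1* and *Uhrf1*. Their median log2 fold change was −0.37, beside −0.39 for the 21 with a window but no match. The CCAAT motif was found for 22 members (61.1%, beside 41.1% of all genes with a window and 42.2% of those tested). The core AANNGAAA, which is shared by sites of IRF factors, was found for 7 members (19.4%, beside 26.7% and 22.0%). All motifs were searched on either strand, matches of different motifs may overlap, and a match is a description of the sequence only.

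The windows of the 4 MCM genes with the E2F motif are shown in order of level to place the motif in the helicase promoters. They are *Mcm3* (chr1:20820263-20820562, minus strand), *Mcm6* (chr1:128359656-128359955, minus strand), *Mcm7* (chr5:138171834-138172133, minus strand) and *Mcm5* (chr8:75109259-75109558, plus strand) of GRCm38.p6, each read 5′ to 3′ along the gene, with E2F matches in capitals.
Mcm3: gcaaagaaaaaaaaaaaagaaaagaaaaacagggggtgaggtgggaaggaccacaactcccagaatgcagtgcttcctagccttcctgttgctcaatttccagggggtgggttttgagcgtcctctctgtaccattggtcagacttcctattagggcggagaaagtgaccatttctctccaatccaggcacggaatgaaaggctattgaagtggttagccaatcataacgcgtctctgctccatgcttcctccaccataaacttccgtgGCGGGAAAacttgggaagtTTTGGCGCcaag
Mcm6: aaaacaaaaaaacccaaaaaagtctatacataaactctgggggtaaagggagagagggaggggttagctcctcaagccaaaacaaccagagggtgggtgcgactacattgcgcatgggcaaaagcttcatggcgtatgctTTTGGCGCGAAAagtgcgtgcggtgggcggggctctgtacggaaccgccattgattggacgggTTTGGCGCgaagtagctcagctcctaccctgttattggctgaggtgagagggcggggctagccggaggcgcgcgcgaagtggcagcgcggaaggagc
Mcm7: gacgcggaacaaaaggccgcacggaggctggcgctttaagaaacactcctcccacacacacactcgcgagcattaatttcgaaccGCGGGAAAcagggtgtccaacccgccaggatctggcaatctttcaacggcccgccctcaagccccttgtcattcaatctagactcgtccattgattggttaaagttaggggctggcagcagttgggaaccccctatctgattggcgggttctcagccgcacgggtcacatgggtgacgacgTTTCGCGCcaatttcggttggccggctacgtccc
Mcm5: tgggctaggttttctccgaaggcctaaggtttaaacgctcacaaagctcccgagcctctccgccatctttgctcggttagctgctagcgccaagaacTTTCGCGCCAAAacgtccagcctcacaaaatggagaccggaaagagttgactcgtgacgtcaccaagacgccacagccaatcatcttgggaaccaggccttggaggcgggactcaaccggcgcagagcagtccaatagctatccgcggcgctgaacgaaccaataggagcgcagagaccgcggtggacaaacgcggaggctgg
*Mcm3* held 2 matches at the end of its window, at bases 270 and 289 counted from the 5′ end. *Mcm6* held 3 matches, of which those at bases 141 and 145 overlap, and the last began at base 204. *Mcm7*, which has 2 windows, held matches at bases 86 and 267 of the window shown. *Mcm5* held 2 overlapping matches at bases 98 and 102. The 4 genes had log2 fold changes of −0.38 (*Mcm3*), −0.41 (*Mcm6*), −0.37 (*Mcm7*) and −0.52 (*Mcm5*), beside −0.44 for *Mcm2*, whose window held no E2F match. *Mcm4* (−0.37) had no window and was not searched.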

How the data were processed

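The submitters' processing notes name Trim Galore for trimming and HISAT2 for alignment to mm39, and the authors counted reads per gene with Htseq-count. The deposited signal is derived from counts, each divided by a size factor that the authors computed with DESeq2. Program versions, annotation and strand setting are not given in the sources used here, so reads of antisense genes may be counted for their neighbours. No column belonged to other samples. All values (100%) were whole numbers of reads at a tolerance of 0.01 reads once each library was rescaled, and whole reads were thereby recovered. Libraries of a genotype were distinct (chi-square per gene from 15.0 to 27.6). Reads are PCR copies without molecular identifiers, so the counting error of whole reads covers sampling only.

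The comparison used limma 3.58.1 (R 4.3.3) on log2(normalized count + 1) and let the prior variance follow a trend with intensity, for genes whose mean was at least 10, and adjustment by Benjamini-Hochberg covered all tested genes. A gene was called if its adjusted *P* was under 0.05 and its log2 fold change beyond 0.58 in either direction, which gave 166 lower and 167 higher. On whole reads, the quasi-likelihood test of edgeR 4.0.16 called 162 lower and 165 higher, and DESeq2 1.42.0 called 207 and 286. The code was checked on simulated data. Alternatives varied the pseudocount, filter, trend, fold threshold, normalization (quantile, TMM) and tool, and used the replicate number as a block. Others added a term for the number of genes at 10 or more normalized counts (the term for genes detected) or left out each library.

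Full statistics were given for *Irf1*, called members, the largest and smallest change of each role and called related genes, and values of other members were added after they had been seen. Members and lists were chosen with earlier results of these data known. Transcript lengths came by symbol from GENCODE vM1 (NCBIM37) and promoter windows from RefSeq on GRCm38.p6, in which 36 of the 43 members were found. These builds differ from mm39, so no other coordinates were used. Measures of the libraries were compared by exact permutation of labels, for which 0.1 is the smallest *P* possible with 3 against 3. This exact test gave *P* = 0.6 for reads, 0.9 for genes with any read, 1.0 for genes at 10 or more normalized counts and 0.5 for the share of the 50 most abundant genes. No symbol in the table starts with mt-, so the share of mitochondrial reads was not analysed here. Tables and figures were made in Python 3.11.15 with matplotlib 3.10.9.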

Additional observations from a re-analysis of the deposited data

How the results depend on the processing

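The median log2 fold change of the 43 members stayed between −0.38 and −0.33 under other pseudocounts, filters, normalizations, tests and terms, and with 1 library left out it was lowest without WT replicate 4 (−0.49) and nearest to 0 without WT replicate 3 (−0.29). Counts moved more. Without an intensity trend in limma, 0 members were called lower and 0 had an adjusted *P* under 0.05 (0.19% of all tested genes were lower by either rule), while 40 of all tested genes were called, and *Gins1*, *Top2a*, *E2f8*, *Mki67* and *Aurkb* lost their calls, as did the markers *Fgd5*, *Flt3*, *Klf1*, *Pf4* and *Gp1ba*. This setting gives low-count and high-count genes the same prior variance, and why the calls were lost was not tested. In the fit with the trend, 38 members were lower at an unadjusted *P* under 0.05 (limma), beside 8.07% of all tested genes. A fold threshold of 0.3 gave 7 members called lower, beside 1.49% of all tested genes called lower, and 561 of all tested genes called in either direction. Members lower at an adjusted *P* under 0.05 numbered 15 with quantile normalization (1.98% of all tested genes), 31 with DESeq2 (3.77%) and 28 with a term for the number of genes detected (3.35%), which was chosen after seeing the data, beside 7 (1.49%) in the limma fit of the report. The cause of these differences was not tested. With single libraries left out, members called lower ranged from 1 to 8 (2 without *Irf1-/-* replicate 2, 4 without *Irf1-/-* replicate 3, 8 without WT replicate 4). Members lower at an adjusted *P* under 0.05 ranged from 1 (*Irf1-/-* replicate 4, WT replicate 2 or WT replicate 3 left out) to 30 (WT replicate 4 left out), with 3 without *Irf1-/-* replicate 2. All tested genes called, 333 with all libraries, fell to 204 when *Irf1-/-* replicate 4 and to 207 when WT replicate 3 was dropped, and rose to 570.0 when WT replicate 4 was. *Pole* changed sign to 0.017 with quantile normalization and ranged from −0.095 to 0.058 with libraries left out, and *Gins4* from −0.13 to 0.045.

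The labels do not say whether the replicate numbers mark a pairing of the libraries, such as a shared day or litter. Replicate 4 was the lowest library of its genotype for 42 members in WT and 39 in *Irf1-/-* HSCs. Deviations from the genotype means correlated across genes by −0.094, 0.246 and 0.147 for replicates 2, 3 and 4, and *Irf1-/-* replicate 2 correlated best with WT replicate 4 (0.251), so not every library correlated best with its own number. With the replicate number as a block, 1 member was called lower, 31 (all 6 MCM genes, 4 clamp and loader genes and 2 chromatin genes among them) were lower at an adjusted *P* under 0.05, beside 3.49% of all tested genes, and 415 of all tested genes were called.

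The median level of the members in WT HSCs was 2758 per kilobase of the longest and 3181 per kilobase of the median transcript. The E2F motif was found for 12 members with TTTCCCGC or TTTGGCGC alone.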
